A study of Homo sapiens with 9 samples.

Results

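The genes described here are 10 of the 17369 genes in the table, chosen by symbol as neutrophil chemoattractants and neutrophil genes. They comprise the ligands Cxcl1, Cxcl2, Cxcl3, Cxcl5 and Csf3 and the neutrophil genes Csf3r, Cxcr2, S100a8, S100a9 and Ly6g. RNA was sequenced from 9 whole orthotopic tumors, 3 in each of 3 groups. The original/B6129SF1 group carried the original TBP3743 cells in B6129SF1 hybrid mice, the adapted/B6129SF1 group carried adapted TBP3743 cells in the same strain, and the adapted/C57BL/6 group carried adapted cells in inbred C57BL/6 mice. TBP3743 is a murine anaplastic thyroid cancer line derived from B6129SF1 mice with thyroid-specific Braf mutation and Trp53 deletion, which the cells of all groups share, and the adapted cells came from passage round 3 through C57BL/6 mice. The hosts were female mice aged 6 weeks, and tumors were collected 14 days after 100000 cells were injected into the thyroid. Tumors of original cells in C57BL/6 mice were not analysed here, so the hosts were compared for adapted cells.

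Neutrophils leave the blood along gradients of CXC chemokines that carry a glutamate-leucine-arginine (ELR) motif. CXCL1, CXCL2, CXCL3 and CXCL5 are such chemokines and signal through the receptor CXCR2, while G-CSF, the product of Csf3, drives neutrophil production and release from the bone marrow through its receptor CSF3R. Tumor cells, fibroblasts and macrophages can all make these ligands, and S100A8 and S100A9, the subunits of calprotectin, are abundant in neutrophils and are also made by monocytes.

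Values are FPKM, fragments scaled by transcript length and tumor, as the authors provided them. FPKM are not counts, so the sequencing depth behind a value is unknown. Values at or near 0 are given as listed. In whole tumors, fewer cells of a type and less RNA per cell cannot be told apart. Skeletal muscle genes were high in adapted/B6129SF1 replicate 3 and adapted/C57BL/6 replicate 1, whose summed levels over 8 muscle markers were 30363 and 4638 FPKM, against 3.21 to 585 FPKM in the other tumors.

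Of the genes that mark neutrophils, some were at or near 0 and others were not. Ly6g, the surface antigen by which mouse neutrophils are sorted, was listed at 0 in 8 of the 9 tumors and at 0.436 FPKM in adapted/C57BL/6 replicate 2. How reads shared with close Ly6 relatives were assigned is not given in the sources used here. Cxcr1, the other receptor of ELR chemokines, reached at most 0.0477 FPKM, and Mpo and Elane, which encode the primary granule proteins myeloperoxidase and neutrophil elastase, reached at most 0.535 and 0.589 FPKM, although both are transcribed mainly in marrow precursors. Of 18 genes listed for mature neutrophils that had a row, 13 passed the filter of 1 FPKM in at least 3 tumors, among them Clec4d, Trem1 and Il1r2, which reached 57.4, 8.35 and 5.50 FPKM and which macrophages or monocytes can also express. The summed level of 7 macrophage and monocyte markers was 710 to 984 FPKM in the original/B6129SF1 tumors, 977 to 1250 FPKM in the adapted/B6129SF1 tumors and 606 to 1307 FPKM in the adapted/C57BL/6 tumors. The levels of S100a8 and S100a9 given here were thus measured in tumors with macrophage markers at high levels and Ly6g at or near 0, and neutrophil genes is used as a name for the symbols chosen. The part of monocytes in these levels was not tested.

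**Figure D1:**
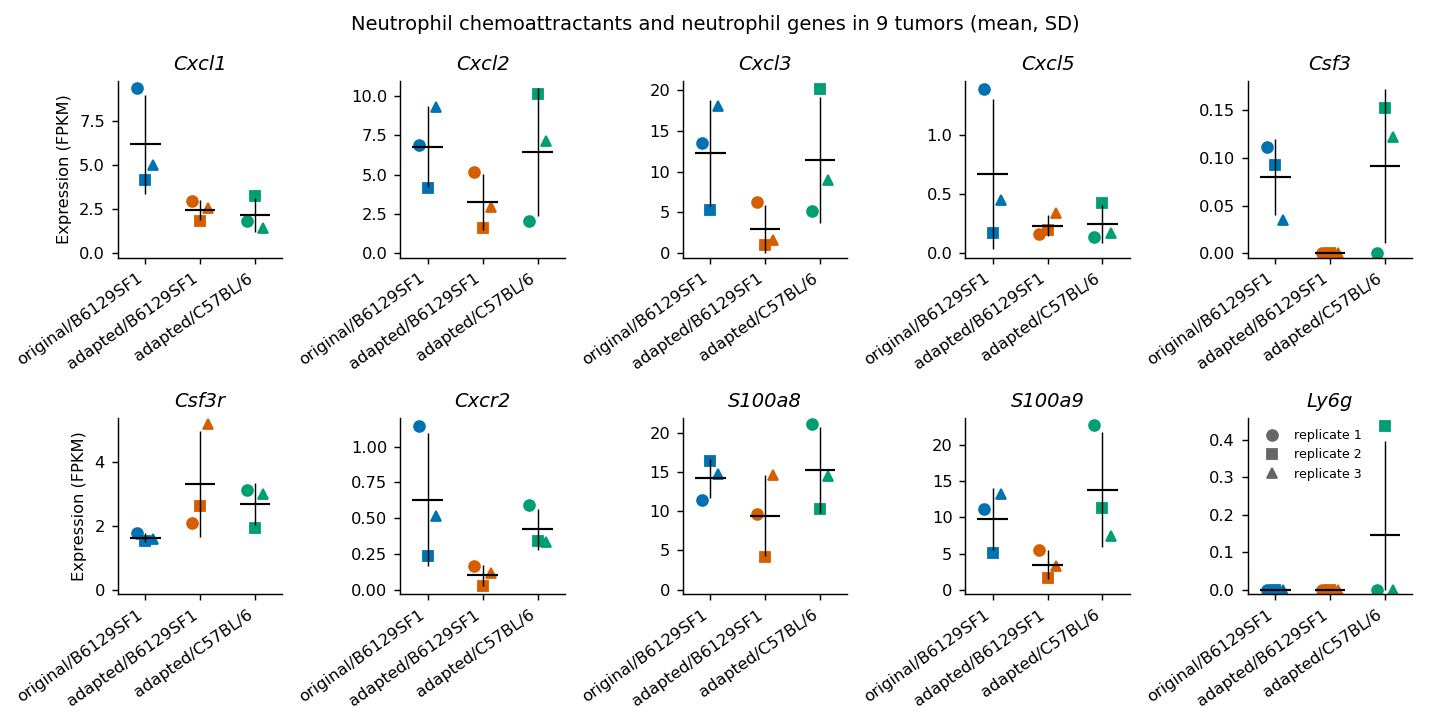
Expression in FPKM (linear axes that differ between panels) of the 10 genes in each tumor, by group, with each point 1 tumor, horizontal bars the mean and vertical bars the SD of 3 tumors (cut at 0). Cxcl1 was higher in every original/B6129SF1 tumor than in any adapted tumor, whereas Cxcl3, S100a9 and Cxcr2 had their lowest mean in the adapted/B6129SF1 group.

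Among the ligands, Cxcl1 was the gene whose levels in the original/B6129SF1 tumors lay above those in every adapted tumor. The adapted/C57BL/6 tumors differ from the original/B6129SF1 tumors in host as well as in cells. Its levels were 9.34, 4.14 and 4.97 FPKM in the original/B6129SF1 tumors, 2.96, 1.80 and 2.53 FPKM in the adapted/B6129SF1 tumors, and 1.81, 3.22 and 1.42 FPKM in the adapted/C57BL/6 tumors. All original/B6129SF1 tumors were above all 6 adapted tumors, and the adapted groups overlapped. Of all genes tested, 15.9% were lower without overlap in the adapted/B6129SF1 group and 17.9% in the adapted/C57BL/6 group, each against the original/B6129SF1 group. The mean level was 2.43 ± 0.585 FPKM in the adapted/B6129SF1 group and 2.15 ± 0.947 FPKM in the adapted/C57BL/6 group compared with 6.15 ± 2.79 FPKM in the original/B6129SF1 group (SD, n = 3 each). On the log2(FPKM + 1) scale, which understates the change of low genes, the difference from the original/B6129SF1 group was -1.01 (standard error 0.30, limma adjusted p = 0.0746) in the adapted/B6129SF1 group and -1.15 (standard error 0.30, limma adjusted p = 0.0538) in the adapted/C57BL/6 group. Neither passed the threshold. The latter passed without adapted/C57BL/6 replicate 2, the adapted/C57BL/6 tumor with the most Cxcl1 (log2 fold change -1.39, limma adjusted p = 0.0474). It was the 1 fit of 9 with a tumor left out that passed, and the limma adjusted p reached 0.182 over these fits. Both comparisons use the same original/B6129SF1 tumors.

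Cxcl2 and Cxcl3 followed another order, with the lowest mean in the adapted/B6129SF1 group. Cxcl3 was listed at 13.5, 5.25 and 18.0 FPKM in the original/B6129SF1 tumors, 6.27, 0.932 and 1.60 FPKM in the adapted/B6129SF1 tumors, and 5.20, 20.1 and 8.91 FPKM in the adapted/C57BL/6 tumors. The highest and the lowest tumor differed 21.6-fold, the widest range among the ligands measured above 0 in every tumor, and the original/B6129SF1 and adapted/C57BL/6 tumors covered much the same range. The mean of the adapted/B6129SF1 group was 0.239 times that of the original/B6129SF1 group, with a log2 fold change of -1.86 (standard error 0.62, limma adjusted p = 0.103), and the groups overlapped through adapted/B6129SF1 replicate 1. Without that tumor the fold change was -2.42 and passed the threshold (limma adjusted p = 0.0490). It was the 1 fit of 9 with a tumor left out that passed, and the limma adjusted p reached 0.255 over these fits. The tumor left out is the one through which the groups overlapped, so the value is given as a description. Compared with the adapted/B6129SF1 group, Cxcl3 was 3.89 times as high in the adapted/C57BL/6 group (log2 fold change 1.72, 95% confidence interval 0.30 to 3.13, limma adjusted p = 0.746), and those groups also overlapped.

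Cxcl2 levels were 6.88, 4.13 and 9.31 FPKM in the original/B6129SF1 tumors, 5.14, 1.61 and 2.95 FPKM in the adapted/B6129SF1 tumors, and 2.06, 10.1 and 7.14 FPKM in the adapted/C57BL/6 tumors. The 3 groups overlapped, and neither difference from the original/B6129SF1 group passed the threshold (log2 fold change -0.91 in the adapted/B6129SF1 group and -0.20 in the adapted/C57BL/6 group, limma adjusted p = 0.283 and 0.847). Relative to Cxcl2, the amount of Cxcl3 was lowest in the adapted/B6129SF1 group. The FPKM ratio of Cxcl3 to Cxcl2 was 0.781 ± 0.381 there, 1.73 ± 0.393 in the original/B6129SF1 group and 1.92 ± 0.641 in the adapted/C57BL/6 group (SD, n = 3 each). The adapted/B6129SF1 tumors did not overlap with those of either other group, with an exact two-sided permutation p = 0.1 for each, the smallest that 3 tumors against 3 can give. The gap was narrow. The highest adapted/B6129SF1 ratio was 1.22, and the lowest were 1.27 in the original/B6129SF1 group and 1.25 in the adapted/C57BL/6 group.

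Cxcl5 and Csf3 were scarce. Cxcl5 was listed at 1.39, 0.171 and 0.446 FPKM in the original/B6129SF1 tumors, 0.163, 0.195 and 0.334 FPKM in the adapted/B6129SF1 tumors, and 0.133, 0.424 and 0.170 FPKM in the adapted/C57BL/6 tumors, so that 1 tumor of 9 exceeded 1 FPKM. Csf3 was listed at 0.111, 0.0922 and 0.0349 FPKM in the original/B6129SF1 tumors, at 0 in all adapted/B6129SF1 tumors, and at 0, 0.152 and 0.122 FPKM in the adapted/C57BL/6 tumors. Its listed values in the original/B6129SF1 and adapted/B6129SF1 tumors did not overlap (exact permutation p = 0.1), but all of them were below 1 FPKM and no fold change is given. Of all genes tested, 15.9% were lower without overlap in that comparison.

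The receptor genes differed in their order across the groups. Csf3r levels were 1.78, 1.54 and 1.59 FPKM in the original/B6129SF1 tumors, 2.11, 2.62 and 5.22 FPKM in the adapted/B6129SF1 tumors, and 3.14, 1.93 and 3.01 FPKM in the adapted/C57BL/6 tumors. Every adapted tumor was above every original/B6129SF1 tumor, and the adapted groups overlapped. Of all genes tested, 13.6% were higher without overlap in the adapted/B6129SF1 group and 14.9% in the adapted/C57BL/6 group, each against the original/B6129SF1 group. The log2 fold change against the original/B6129SF1 group was 0.65 (standard error 0.26, limma adjusted p = 0.152) in the adapted/B6129SF1 group and 0.47 (standard error 0.26, limma adjusted p = 0.300) in the adapted/C57BL/6 group, neither past the threshold. Without adapted/B6129SF1 replicate 3, the tumor with the most Csf3r and the most muscle RNA, the first was 0.35 (limma adjusted p = 0.293). The summed level of 4 markers of all leukocytes moved with Csf3r, at 248 to 270 FPKM in the original/B6129SF1 group, 370 to 567 FPKM in the adapted/B6129SF1 group and 309 to 617 FPKM in the adapted/C57BL/6 group. Its part in the Csf3r levels was not tested.

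Cxcr2, the receptor of the ELR chemokines, was below 1 FPKM in 8 of 9 tumors. It was listed at 1.15, 0.231 and 0.513 FPKM in the original/B6129SF1 tumors, 0.167, 0.0222 and 0.114 FPKM in the adapted/B6129SF1 tumors, and 0.588, 0.341 and 0.335 FPKM in the adapted/C57BL/6 tumors. The adapted/B6129SF1 tumors lay below all tumors of both other groups (exact two-sided permutation p = 0.1 for each), and the original/B6129SF1 and adapted/C57BL/6 tumors overlapped. Among the genes that passed the filter, which Cxcr2 did not, 15.9% were lower without overlap in the adapted/B6129SF1 than in the original/B6129SF1 group. The share higher without overlap in the adapted/C57BL/6 than in the adapted/B6129SF1 group was 6.32%.

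S100a9, like Cxcr2, had its lowest mean in the adapted/B6129SF1 group, while S100a8 varied less. S100a9 levels were 11.2, 5.02 and 13.2 FPKM in the original/B6129SF1 tumors, 5.50, 1.55 and 3.31 FPKM in the adapted/B6129SF1 tumors, and 22.8, 11.3 and 7.43 FPKM in the adapted/C57BL/6 tumors. Every adapted/C57BL/6 tumor was above every adapted/B6129SF1 tumor. The mean was 13.8 ± 7.97 FPKM in the adapted/C57BL/6 group compared with 3.45 ± 1.98 FPKM in the adapted/B6129SF1 group (SD, n = 3 each), a log2 fold change of 1.70 (standard error 0.48, 95% confidence interval 0.61 to 2.79), with a limma adjusted p = 0.602 and an unadjusted p = 0.0065. Between the adapted/B6129SF1 and original/B6129SF1 groups the log2 fold change was -1.29 (standard error 0.48, limma adjusted p = 0.131), and those groups overlapped.

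S100a8, which encodes the partner subunit, was listed at 11.4, 16.4 and 14.7 FPKM in the original/B6129SF1 tumors, 9.59, 4.15 and 14.6 FPKM in the adapted/B6129SF1 tumors, and 21.1, 10.2 and 14.5 FPKM in the adapted/C57BL/6 tumors. The 3 groups overlapped, and the log2 fold changes of -0.67, 0.06 and 0.73 for adapted/B6129SF1 and adapted/C57BL/6 against original/B6129SF1 and for adapted/C57BL/6 against adapted/B6129SF1 did not pass the threshold (limma adjusted p = 0.309, 0.946 and 0.829). The FPKM ratio of S100a8 to S100a9 ranged from 0.906 in adapted/C57BL/6 replicate 2 to 4.41 in adapted/B6129SF1 replicate 3. The subunits were thus not listed in a fixed proportion. The largest values of both, 21.1 and 22.8 FPKM, were in adapted/C57BL/6 replicate 1, and the smallest, 4.15 and 1.55 FPKM, in adapted/B6129SF1 replicate 2.

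**Figure D2:**
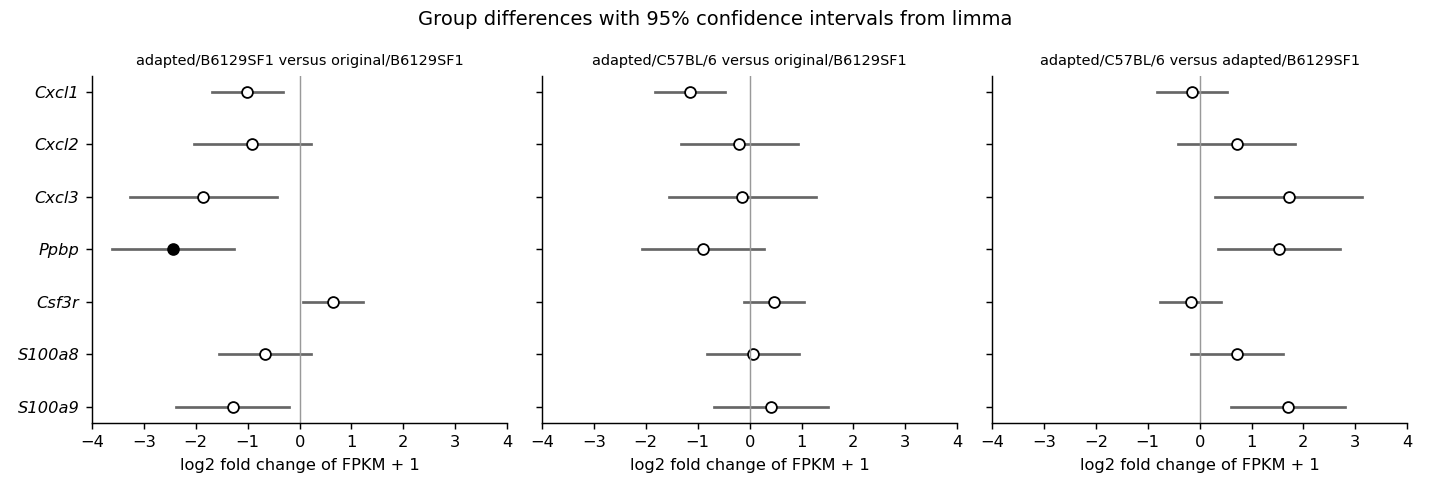
Log2 fold changes of FPKM + 1 from limma (points) with 95% confidence intervals (lines) for the 6 genes tested and for Ppbp, in each pair of groups, with filled points for genes that passed both thresholds. Only Ppbp in the adapted/B6129SF1 group against the original/B6129SF1 group is filled, a call lost under the replicate block (limma adjusted p = 0.0677), while the intervals of Cxcl1, Cxcl3, Csf3r and S100a9 in that comparison exclude 0 before adjustment.

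Across all genes, 6 of the 10 passed the filter of at least 1 FPKM in at least 3 tumors and were tested, and Cxcl5, Csf3, Cxcr2 and Ly6g were not. Each of the 6 was at or above 1 FPKM in at least 8 tumors. A gene was called when its adjusted p was under 0.05 and its absolute log2 fold change above 1. Of these 6 genes, 0 were called in any comparison, by limma and also without the filter, when all 10 were tested, where the same test called 3.22% of all genes tested between adapted/B6129SF1 and original/B6129SF1, 3.09% between adapted/C57BL/6 and original/B6129SF1 and 0.0292% between adapted/C57BL/6 and adapted/B6129SF1. At an unadjusted p under 0.05, 4 of the 6 genes passed in the first comparison (26.5% of all genes), 1 in the second (24.4%) and 2 in the third (6.27%). Without overlap, 1 of the 6 (Cxcl1) was lower in the adapted/B6129SF1 than in the original/B6129SF1 group (15.9% of all genes) and 1 (Csf3r) was higher (13.6%). Likewise Cxcl1 was lower in the adapted/C57BL/6 than in the original/B6129SF1 group (17.9%) and Csf3r was higher (14.9%), and 1 gene (S100a9) was higher in the adapted/C57BL/6 than in the adapted/B6129SF1 group (6.32%). With the genes under the filter included, 4, 2 and 2 of the 10 did not overlap in the 3 comparisons. The additions were Csf3 and Cxcr2 in the first and Cxcr2 in the third. The median log2 fold change of the 6 genes was -0.96, -0.04 and 0.72 in the 3 comparisons, compared with -0.03, -0.03 and 0.01 for all genes tested.

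Among the other genes of the ELR chemokine system, Ppbp was called. It encodes CXCL7, an ELR chemokine known from platelets that is also a ligand of CXCR2. Ppbp levels were 23.8, 14.2 and 27.9 FPKM in the original/B6129SF1 tumors, 7.69, 1.94 and 1.71 FPKM in the adapted/B6129SF1 tumors, and 6.17, 19.9 and 10.1 FPKM in the adapted/C57BL/6 tumors. All adapted/B6129SF1 tumors were below all original/B6129SF1 tumors, and Ppbp fell by 2.43 on the log2 scale (standard error 0.52, limma adjusted p = 0.0259). The call rested on individual tumors, since the adjusted p was 0.0855 without original/B6129SF1 replicate 1, 0.0943 without original/B6129SF1 replicate 3, 0.0769 without adapted/B6129SF1 replicate 2 and 0.0666 without adapted/B6129SF1 replicate 3. It was also lost with the replicate number as a block (limma adjusted p = 0.0677) and without both muscle-rich tumors (limma adjusted p = 0.0584). The adapted/C57BL/6 group did not differ past the threshold from either other group (log2 fold change -0.90 against original/B6129SF1 and 1.53 against adapted/B6129SF1, limma adjusted p = 0.327 and 0.699). Pf4, another platelet chemokine gene, ranged from 69.5 to 527 FPKM and was lowest in adapted/B6129SF1 replicate 2. The summed level of 4 platelet markers, which include Ppbp and Pf4, was 331 to 556 FPKM in the original/B6129SF1 tumors, 72.04 to 285 FPKM in the adapted/B6129SF1 tumors and 236 to 331 FPKM in the adapted/C57BL/6 tumors, and 1 of them was under 1 FPKM in every tumor. Pf4 alone was 307 to 527, 69.5 to 276 and 229 to 320 FPKM in these groups. The sum is thus largely Pf4 and contains Ppbp, so it does not show how the remaining platelet markers moved. The part of platelets in the Ppbp levels was not tested. Of the 9 genes on this list, 8 had a row, 4 were tested and 1 was called lower in the adapted/B6129SF1 group, where 0.857% of all genes tested were called lower. The 4 were Ppbp and Cxcl1, Cxcl2 and Cxcl3, which were already counted among the described genes. Ppbp was thus the gene that this list adds, with an unadjusted limma p of 0.0012, 0.117 and 0.0166 in the 3 comparisons. By limma 0 were called in the other comparisons, and 3, 1 and 2 of the 4 had an unadjusted p under 0.05 in the 3 comparisons, against 26.5%, 24.4% and 6.27% of all genes. The same shares are the background for each list of genes described next.

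Among the colony-stimulating factors and their receptors, the receptor genes had positive fold changes against the original/B6129SF1 group, as Csf3r had, and the factors did not move as one. Csf2, which encodes GM-CSF, was under the filter like Csf3, with means of 0.514, 0.211 and 0.473 FPKM in the original/B6129SF1, adapted/B6129SF1 and adapted/C57BL/6 groups. Of 8 genes on that list 6 were tested, and all 6 (Csf1 and 5 receptor genes) had a positive log2 fold change in both adapted groups against the original/B6129SF1 group, with medians of 0.58 and 0.43 compared with -0.03 and -0.03 over all genes tested. The value of Csf1 in the adapted/B6129SF1 group was 0.0068 (limma adjusted p = 0.986), and between the adapted groups 5 of the 6 values were negative. By limma 0 were called in any comparison, with 4, 2 and 1 of the 6 at an unadjusted p under 0.05, against 26.5%, 24.4% and 6.27% of all genes. Csf3r, already counted among the described genes, was 1 of the 4. Csf2ra, the alpha chain of the GM-CSF receptor, was 34.0 ± 3.54 FPKM in the adapted/B6129SF1 group and 31.5 ± 8.96 FPKM in the adapted/C57BL/6 group compared with 17.5 ± 3.39 FPKM in the original/B6129SF1 group (SD, n = 3 each), with log2 fold changes of 0.93 and 0.79 (limma adjusted p = 0.0345 and 0.0630). The first passed the adjusted threshold but not the fold threshold. That limma adjusted p was 0.0584 without the filter, 0.103 without both muscle-rich tumors and up to 0.111 with 1 tumor left out. For Csf1r, the M-CSF receptor of macrophages, the value was 0.72 for adapted/B6129SF1 against original/B6129SF1 (limma adjusted p = 0.115), and for its ligand gene Csf1 it was 0.63 for adapted/C57BL/6 (limma adjusted p = 0.0772).

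Genes of adhesion and of other chemoattractant receptors included the second called gene, Selplg. Of 15 genes on this list 14 were tested, 11 of which had positive fold changes in each adapted group against the original/B6129SF1 group, with medians of 0.41 and 0.60. At an unadjusted p under 0.05, 5, 7 and 0 of the 14 passed in the 3 comparisons, against 26.5%, 24.4% and 6.27% of all genes. The summed leukocyte markers were higher in the adapted groups as well (248 to 270 FPKM in the original/B6129SF1 tumors, 370 to 567 FPKM in the adapted/B6129SF1 tumors and 309 to 617 FPKM in the adapted/C57BL/6 tumors), and their part in these values, Selplg included, was not tested. Selplg, which encodes the selectin ligand PSGL-1 carried by most leukocytes, rose in the adapted/B6129SF1 group, with a log2 fold change against original/B6129SF1 of 1.01 (standard error 0.22, limma adjusted p = 0.0279) and was the gene of the list that was called. Its mean was 20.4 ± 3.36 FPKM compared with 9.65 ± 1.66 FPKM (SD, n = 3 each). That call was lost, with adjusted p between 0.0604 and 0.0949, without any one of original/B6129SF1 replicates 1, 2 and 3 and adapted/B6129SF1 replicates 2 and 3, and also with the replicate block and without both muscle-rich tumors (limma adjusted p = 0.0528 and 0.0608). In the adapted/C57BL/6 group the fold change was 0.99 (limma adjusted p = 0.0321), just under the fold threshold. Itgb2, the beta chain of the leukocyte integrins, had log2 fold changes of 0.72 and 0.76 in the adapted/B6129SF1 and adapted/C57BL/6 groups (limma adjusted p = 0.0699 and 0.0632), and Ptafr, the receptor of platelet-activating factor, 0.69 and 0.45 (limma adjusted p = 0.0431 and 0.147). For Ptafr in the adapted/B6129SF1 group the limma adjusted p was 0.0671 without the filter and up to 0.103 with 1 tumor left out.

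Of 15 inducers of the ligands, which are IL-17 and IL-1 family cytokines, TNF, their receptors and NF-kappaB components, 11 were tested and 0 were called by limma, with 1, 2 and 2 at an unadjusted p under 0.05 in the 3 comparisons. Il17a was listed at 0 in all 9 tumors. Il1b, which encodes the cytokine IL-1 beta, was listed at 6.13, 2.09 and 6.30 FPKM in the original/B6129SF1 tumors, 0.950, 1.43 and 3.70 FPKM in the adapted/B6129SF1 tumors, and 3.96, 9.54 and 9.98 FPKM in the adapted/C57BL/6 tumors. It had the same order of group means as S100a9, and the adapted/C57BL/6 tumors were all above the adapted/B6129SF1 tumors (log2 fold change 1.56, limma adjusted p = 0.602). Rela, an NF-kappaB subunit gene, was lower in all adapted/B6129SF1 tumors than in the original/B6129SF1 tumors by a small amount (log2 fold change -0.34, limma adjusted p = 0.0433). The limma adjusted p of Rela was 0.0918 with the replicate block and up to 0.137 with 1 tumor left out.

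Neutrophil granule genes were mostly under the filter, and those tested were not called. Of 14 such genes 13 had a row and 5 were tested (Ctsg, Lcn2, Mmp8, Mmp9 and Lyz2, genes that mast cells, epithelium or macrophages also express), and 0 of these were called by limma or had an unadjusted p under 0.05 in any comparison. Of the 8 with a row that were under the filter, 6 were highest in adapted/C57BL/6 replicate 1. Prtn3 and Padi4, also under the filter, and the 5 tested genes were each higher in another tumor. Ctsg was lowest in adapted/C57BL/6 replicate 1, at 0.162 FPKM against 0.248 to 1.70 FPKM elsewhere. Camp, Ngp and Ltf, which encode proteins of the secondary granules, reached 3.89, 3.82 and 2.05 FPKM there, whereas no other tumor exceeded 1.03, 0.718 and 0.444 FPKM. This is the tumor with the largest S100a8 and S100a9 levels. It also had the most alpha-globin RNA, with Hba-a1 at 70.8 FPKM against at most 22.0 FPKM elsewhere (Hba-a1 and Hba-a2 are near-identical copies, so their split is uncertain), and muscle RNA above that of 7 tumors. The part of blood or of muscle tissue in its S100a8 and S100a9 levels was not tested.

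**Figure D3:**
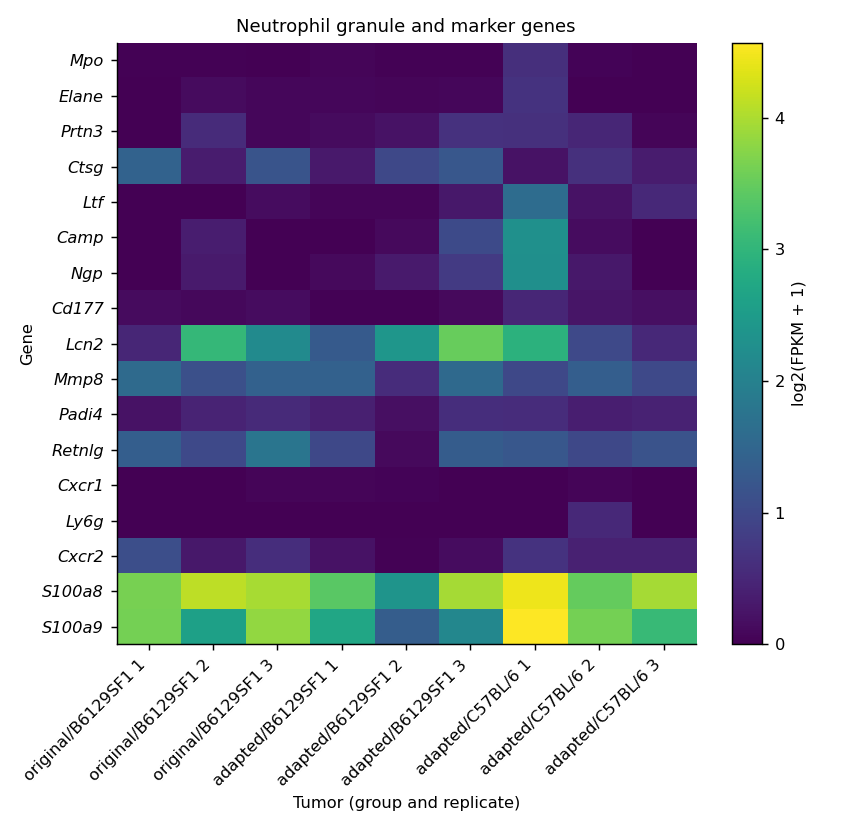
Expression as log2(FPKM + 1) (color scale) of granule genes, Retnlg, Cxcr1, Ly6g, Cxcr2, S100a8 and S100a9 in each of the 9 tumors (columns, by group and replicate). Camp, Ngp and Ltf reach 3.89, 3.82 and 2.05 FPKM in adapted/C57BL/6 replicate 1, and most other cells of the upper rows are near 0, in contrast to S100a8 and S100a9 at the bottom.

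Of the 20 genes listed for mature neutrophils 18 had a row, 13 were tested and 0 were called by limma, with 2, 2 and 1 at an unadjusted p under 0.05. Csf3r, already counted among the described genes, was 1 of the 2 in the first comparison. Stfa2 and Stfa3, members of a family of close copies, were listed at 0 in 8 of 9 tumors each, and Retnlg, a gene of mouse neutrophils, reached at most 2.41 FPKM. Il1rn, the IL-1 receptor antagonist, and Ifitm1, an interferon-induced gene, were listed higher in all adapted/C57BL/6 tumors than in all original/B6129SF1 tumors (log2 fold change 1.03 and 1.38, limma adjusted p = 0.0800 and 0.0538), as were 14.9% of all genes tested. Neither is particular to neutrophils. Ifitm1 was also higher without overlap in the adapted/B6129SF1 group (log2 fold change 1.11, limma adjusted p = 0.0941), as were 13.6% of all genes. Il1rn was not (-0.03), and was higher without overlap in the adapted/C57BL/6 than in the adapted/B6129SF1 group (1.06, limma adjusted p = 0.602), as were 6.32% of all genes. The 5 genes for receptors or binding partners of S100A8 and S100A9 were tested, and 0 were called by limma, with 1, 0 and 0 at an unadjusted p under 0.05. Bsg, which encodes basigin, was lower in the adapted/B6129SF1 tumors without overlap (log2 fold change -0.26, limma adjusted p = 0.132).

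To relate the ligands to the neutrophil genes tumor by tumor, the 25 pairs of 5 ligands and 5 neutrophil genes were correlated over the 9 tumors on the log2(FPKM + 1) scale. Of the 25 Pearson coefficients 19 were positive, from -0.63 to 0.75. Cxcr2 and S100a9 correlated positively with all 5 ligands, S100a8 with 4 of 5, and Csf3r negatively with all 5. The remaining 5 positive pairs, from 0.016 to 0.56, were those of Ly6g, which was listed at 0 in 8 of 9 tumors, so they show only where adapted/C57BL/6 replicate 2 lay for each ligand. By exact permutation tests, 2 pairs had a raw p under 0.05 and 0 had an adjusted p under 0.05 over the 25 pairs (smallest adjusted p = 0.334). When both genes were centred on their group means, 14 pairs were positive and 0 had a raw p under 0.05, so the relation within groups was not detectable with these tumors.

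**Figure D4:**
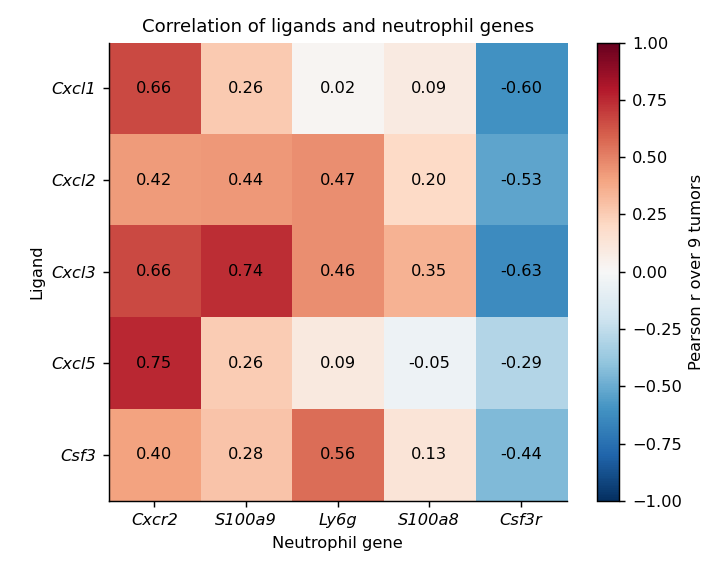
Pearson r over the 9 tumors (color scale and printed values) between each ligand (rows) and each neutrophil gene (columns), on the log2(FPKM + 1) scale. All 5 values for Csf3r are negative and all 5 for Cxcr2 and S100a9 are positive, with the largest at 0.75 and 0.74, and none passed the adjusted threshold.

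The pair of Cxcl3 and S100a9 had r = 0.74 (exact permutation p = 0.0226, adjusted p = 0.334) and Spearman's rho = 0.63 (exact permutation p = 0.0760, adjusted p = 0.410). Without the 2 tumors farthest from the median of Cxcl3, r was 0.56 (exact permutation p = 0.187). The pair turned on adapted/C57BL/6 replicate 1, which held the most S100a9, 22.8 FPKM, with 5.20 FPKM of Cxcl3. Without this tumor r was 0.98 (n = 8, exact permutation p = 0.000124, adjusted p = 0.00279 over the 25 pairs), and for Cxcl2 and S100a9 r rose from 0.44 to 0.97 (n = 8, exact permutation p = 0.000223, adjusted p = 0.00279). These values follow from leaving out the tumor that lay farthest from the others, singled out after its values were seen, and are given as a description. With group means removed over all 9 tumors r was 0.44 for Cxcl3 and S100a9 (exact permutation p = 0.296) and 0.091 for Cxcl2 and S100a9 (exact permutation p = 0.843). Without both tumors with the most muscle RNA, an alternative chosen after seeing the data, r was 0.99 and 0.97 (n = 7, exact permutation adjusted p = 0.0223 for each).

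The pair of Cxcl5 and Cxcr2 had r = 0.75 (exact permutation p = 0.0392, adjusted p = 0.334) and Spearman's rho = 0.27 (exact permutation p = 0.493, adjusted p = 0.725). It rested on original/B6129SF1 replicate 1, the tumor in which both exceeded 1 FPKM, since r was 0.16 without it and -0.16 without the 2 tumors farthest from the median of Cxcl5. Csf3r had its most negative coefficients with Cxcl3 (r = -0.63, exact permutation p = 0.0690, adjusted p = 0.345; rho = -0.55, exact permutation p = 0.133) and Cxcl1 (r = -0.60, exact permutation p = 0.0874, adjusted p = 0.364; rho = -0.78, exact permutation p = 0.0172, adjusted p = 0.410). Without the 2 tumors farthest from the ligand's median r was -0.76 and -0.66, without both muscle-rich tumors -0.44 and -0.80, and with group means removed -0.49 and -0.16.

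**Figure D5:**
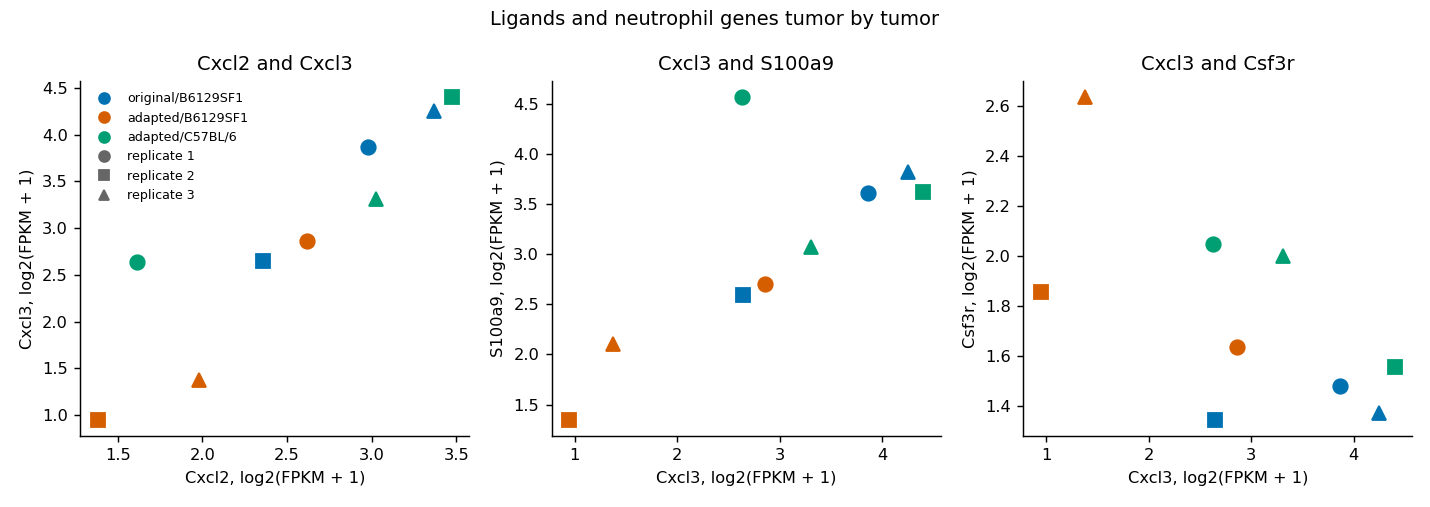
Log2(FPKM + 1) of Cxcl2 against Cxcl3 (left), Cxcl3 against S100a9 (middle) and Cxcl3 against Csf3r (right), with each point 1 of the 9 tumors, colors for groups and shapes for replicates. In the middle panel 8 tumors lie close to a line and adapted/C57BL/6 replicate 1 lies above it, with r = 0.74 over all 9 tumors and 0.98 without it.

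Within the 5 ligands and within the 5 neutrophil genes, 20 pairs were correlated in the same way. All 10 ligand pairs were positive, and Cxcl2 and Cxcl3 had r = 0.91 (exact permutation p = 0.0010, adjusted p = 0.0210 over the 20 pairs) and Spearman's rho = 0.97 (exact permutation p = 0.000165, adjusted p = 0.00331). Adjusted over all 45 pairs it was the 1 pair that passed (exact permutation adjusted p = 0.0472). The coefficient was 0.91 with group means removed (exact permutation p = 0.00926), 0.97 without the 2 tumors farthest from the median of Cxcl2 and between 0.86 and 0.98 with each tumor left out in turn. With 8 tumors the adjusted p passed in 4 of 9 cases and did not pass without original/B6129SF1 replicate 3, adapted/B6129SF1 replicate 1, adapted/B6129SF1 replicate 2, adapted/C57BL/6 replicate 2 or adapted/C57BL/6 replicate 3, where it reached at most 0.121 by the exact permutation test. Cxcl2 and Cxcl3 are close relatives, and how reads they share were assigned is not given in the sources used here.

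Of the 10 pairs of neutrophil genes 5 were positive. Cxcr2 and S100a9 had r = 0.77 (exact permutation p = 0.0155, adjusted p = 0.104) and Spearman's rho = 0.88 (exact permutation p = 0.00308, adjusted p = 0.0308), and r was 0.96 without the 2 tumors farthest from the median of Cxcr2. With group means removed r was 0.65 (exact permutation p = 0.0787). Leaving out original/B6129SF1 replicate 1, the only tumor with Cxcr2 above 1 FPKM, gave r = 0.97 (n = 8, exact permutation adjusted p = 0.00347). That was 1 of 9 cases with a tumor left out, and in the other 8 the pair did not pass, with r down to 0.69 and an exact permutation adjusted p up to 0.370. S100a8 and S100a9 had r = 0.67 (exact permutation p = 0.0470, adjusted p = 0.179) and rho = 0.45 (exact permutation p = 0.230, adjusted p = 0.436), with r = 0.18 without the 2 tumors farthest from the median of S100a8. Without adapted/B6129SF1 replicate 2, which was lowest in both, r was 0.30.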

How the data were processed

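RNA from 9 whole tumors, 3 per group by the labels, was measured. Per the paper's methods and the submitters' processing notes, the authors checked reads with FastQC, aligned them to mm10 with HISAT2 and deposited FPKM values made with Cuffnorm. Annotation and scaling are not given in the sources used here. Tumors were taken as separate animals.

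Values were analysed as log2(FPKM + 1) with limma 3.58.1 in R 4.3.3 (lmFit, eBayes with trend, 3 groups in one model) for the 10263 genes that reached 1 FPKM in 3 or more tumors, with Benjamini-Hochberg adjustment over all of them. The procedure was run on simulated tumors as a check of the code. The outcome of that check is not given, so it does not show how often differences of the described sizes would be found. Correlations used exact two-sided permutation tests in Python 3.11.15. The number of tumors limits the precision. The members and gene lists were chosen with earlier results of these data known. All members are named with their value in every tumor. Listed genes are named where they were called or where groups did not overlap, at most 6 a list by adjusted p. Genes of the granule list, Il17a, Stfa2, Stfa3, Retnlg, Pf4 and the globins were named after their values were seen. Coordinates and sequences were not analysed here. Replicate numbers come from the labels, and same-numbered tumors are different animals.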

Additional observations from a re-analysis of the deposited data

How the results depend on the processing

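Of 655 recomputed log2 fold changes, 620 kept their direction and side of the threshold, 13 lost a call, 10 gained one and 12 turned sign. Several settings leave the fold change itself the same by design. They are no filter, no trend, the compared groups alone, the replicate block and leaving out a tumor of the third group. Most of these results were also not called in the main fit, so the 620 does not measure robustness. With an adjusted p under 0.05 and no fold threshold, 850 and 693 genes were called in the adapted/B6129SF1 and adapted/C57BL/6 groups against the original/B6129SF1 group. Between the adapted groups, where 3 genes were called, the number was 1 without the filter, 0 with the 6 compared tumors alone and 0 under the replicate block. Leaving out 1 tumor in turn gave 141 to 358, 156 to 347 and 0 to 6 genes called. The number of the described genes called was then 0 to 1 against the original/B6129SF1 group in either adapted group, and the number of ligand and neutrophil gene pairs past the threshold was 0 to 2. That number was 1 without the 2 tumors farthest from the ligand median (Cxcl2 and S100a9) and 2 without both tumors with the most muscle RNA, an alternative chosen after seeing the data. For adapted/C57BL/6 against original/B6129SF1, log2 fold changes turned sign with 1 tumor left out for Cxcl2 (-0.58 to 0.35), Cxcl3 (-0.62 to 0.27) and S100a8 (-0.19 to 0.30), and equalled 0.35, 0.27 and -0.19 without the muscle-rich tumors. For adapted/C57BL/6 against adapted/B6129SF1 they turned sign for Cxcl1 (-0.38 to 0.021) and Csf3r (-0.38 to 0.12, and 0.032 without the muscle-rich tumors). The cause was not tested.

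With the replicate block 242, 245 and 0 genes were called. Same-numbered tumors correlated in their deviations from the group means between -0.39 and 0.61, so the numbers were not taken to pair the tumors. The block ended the calls of Ppbp and Selplg (adjusted p = 0.0677 and 0.0528 from limma), as did leaving out the muscle-rich tumors (adjusted p = 0.0584 and 0.0608 from limma). The lack of counts limits what values under 1 FPKM can show for Cxcl5, Csf3, Cxcr2 and Ly6g, and with 3 tumors a group no exact test between 2 groups could go below 0.1.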

Other observations

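Over the 9 tumors, the genes most like S100a8 by Pearson r of log2(FPKM + 1), among 10257 other genes tested, were Fxyd6 (r = 0.90), Got1 (0.89), Eps15 (0.89), Hgsnat (0.87) and Thbd (0.86). Those most like Cxcl1 were Ggps1 (r = 0.96), Hace1 (0.95), Rc3h1 (0.95), Tnks2 (0.94) and Terf2 (0.94). With 9 tumors and this many genes, the coefficients are given as a description of likeness.

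Tumor by tumor, the summed level of Cxcl1, Cxcl2, Cxcl3 and Cxcl5 and that of S100a8 and S100a9 ranked alike in some tumors and not in others. Adapted/B6129SF1 replicate 2 was lowest in both sums (4.54 and 5.70 FPKM) and original/B6129SF1 replicate 3 was in second place from the top in both (32.8 and 27.9 FPKM). Adapted/C57BL/6 replicate 1 had the highest S100a8 and S100a9 sum (43.8 FPKM) and a ligand sum of 9.21 FPKM, and adapted/C57BL/6 replicate 2, with the highest ligand sum (33.9 FPKM), was in the fifth place for S100a8 and S100a9 (21.6 FPKM). Cxcl3 made up 56.5%, 59.4% and 50.5% of the ligand sum in the adapted/C57BL/6 tumors, 43.5%, 38.4% and 55.1% in the original/B6129SF1 tumors, and 43.2%, 20.6% and 21.6% in the adapted/B6129SF1 tumors. The FPKM ratio of Cxcl3 to Cxcl1 was 5.13 ± 1.96 in the adapted/C57BL/6 group and 1.09 ± 0.894 in the adapted/B6129SF1 group (SD, n = 3 each), without overlap (exact two-sided permutation p = 0.1, the smallest that 3 tumors against 3 can give).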
